A study of Danio rerio with 5 samples.

Results

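The macrophage genes described here are 4 rows of the deposited tables, out of 17997 gene rows in all: mpeg1.1 (ENSDARG00000055290), marco (ENSDARG00000059294), cd74a (ENSDARG00000009087) and lcp1 (ENSDARG00000023188). They were chosen by their identifiers, and the wells that carried them were counted at each time point and compared with the cardiomyocyte transcripts of the same wells. All hearts came from adult zebrafish of the TL background that carried TgBAC(nppa:mCitrine), a transgene in which the regulatory region of nppa drives a yellow fluorescent protein. The tip of the ventricle was frozen (cryo-injury), and the hearts were taken at 1, 3 or 7 days post-cryo-injury (dpci). Ventricles were dissociated with enzymes, and viable cells were sorted on mCitrine, 1 cell to a well, to collect the cardiomyocytes that border the wound. The transcripts were counted by SORT-seq, which tags every transcript of a well with a unique molecular identifier (UMI), so that PCR copies are not counted again.

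In all, 5 plates of 384 wells were analysed, of which 1 was from 1 dpci, 1 from 3 dpci and 3 from 7 dpci. The sources used here do not tie fish to plates, so the spread between the 7 dpci plates may be technical, and a time point with 1 plate has no replicate check. No uninjured or unsorted sample was analysed here. Wells with at least 500 UMIs, without spike-in and mitochondrial transcripts, were kept as cells. The plate of 1 dpci gave 283, that of 3 dpci gave 268, and those of 7 dpci (plates 1, 2 and 3) gave 169, 230 and 225. These wells held 282358 to 1238176 UMIs per plate, with a median of 1023 to 2700 per cell, and plate 1 of 7 dpci was the shallowest on both counts. The labels name the cells border zone cardiomyocytes, and 22 cardiomyocyte genes such as myl7 took a median of 16.6% to 25.8% of a cell's UMIs. A cell was called cardiomyocyte-rich where these genes took at least 10% of its UMIs. That held for 238, 243, 166, 227 and 222 cells of the plates in the order above, and between 3 and 61 cells per plate lay near that threshold, at 5% to 15%.

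Macrophages are phagocytes of the innate immune system that clear dead tissue and steer repair, and in the injured zebrafish heart they gather in and around the wound. mpeg1.1 encodes a pore-forming protein (perforin-2) that acts on engulfed microbes, and its promoter is a standard macrophage reporter in zebrafish. marco encodes a scavenger receptor of the macrophage surface that binds bacteria and debris. cd74a encodes an invariant chain that escorts MHC class II molecules, which display engulfed peptides to T cells. lcp1 encodes L-plastin, an actin-bundling protein found across white blood cells, so that it marks leukocytes more broadly than the other members do.

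Most sorted wells carried none of these transcripts. Of 1175 cells, 1057 had no UMI of any of the 4 genes and 118 had at least 1. At 1 dpci, 55 cells carried 1 of the genes, 6 carried 2, 6 carried 3 and 7 carried all 4. At 3 dpci, 16 cells carried 1, 3 carried 2, 5 carried 3 and 7 carried all 4. At 7 dpci, the cells with 1 gene numbered 3, 1 and 6 on the 3 plates, and no cell carried exactly 2. On each of those plates a lone cell carried several: 3 genes on plates 1 and 2, and all 4 on plate 3. Over all plates 81 cells carried 1 of the genes, 9 carried 2, 13 carried 3 and 15 carried all 4. At 1 dpci the cells with 2 genes were as many as those with 3.

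Wells with UMIs of at least 3 of the 4 genes are called wells with several macrophage genes below. There were 13 among 283 cells at 1 dpci (4.59%) and 12 among 268 cells at 3 dpci (4.48%). Each 7 dpci plate had 1, a share of 0.592%, 0.435% and 0.444%, with a mean of 0.490% over the 3 plates. With 1 plate at each earlier time, 3 plates against 1 cannot reach p = 0.05 by permutation, and no test was made on these shares. The 28 wells lay at 28 different plate positions, and all plates used the same 384 well barcodes. So few wells would give few repeats in any case, and an effect of position was not tested. Depth bears on these shares, because a deep well has more chances to show 3 genes. When every cell was thinned to 1000 UMIs, 1 of 240 cells qualified at 1 dpci (0.417%), 4 of 211 at 3 dpci (1.90%) and none on the 7 dpci plates. The same cells gave 5.42% and 5.69% at 1 and 3 dpci without thinning, and 43 and 57 shallower cells were left out. The exact 95% binomial intervals of the thinned shares overlapped, at 0.0105% to 2.30% and 0.519% to 4.78%.

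**Figure D1:**
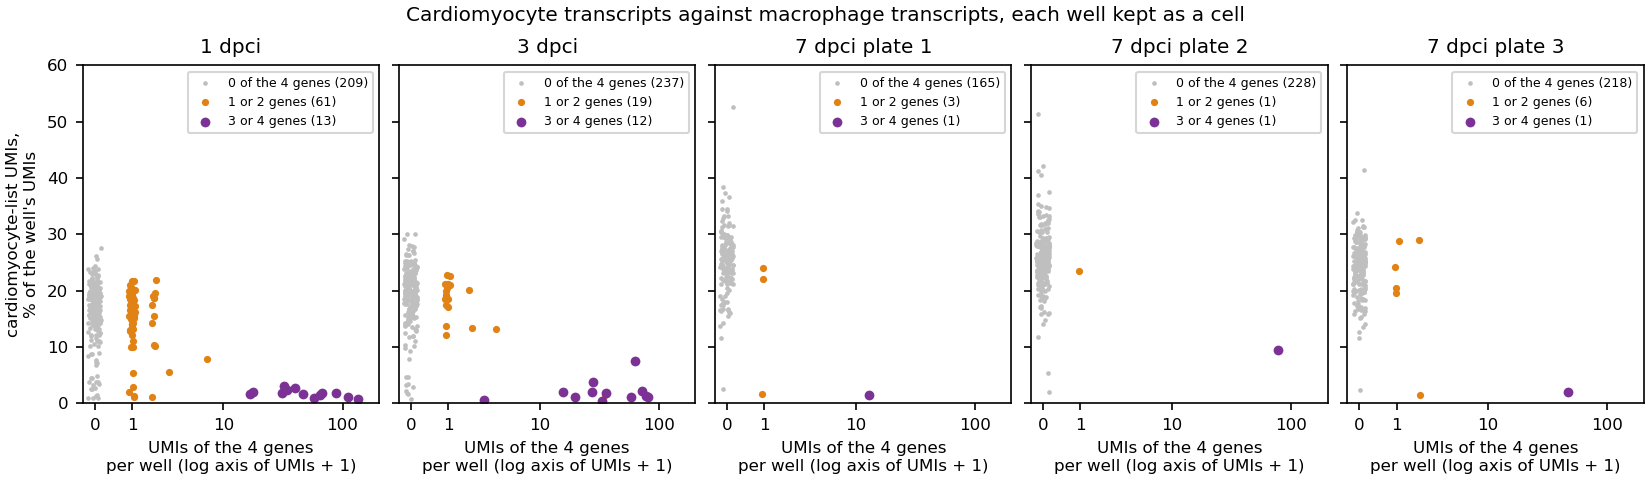
Each point is a well kept as a cell. The x axis is the number of UMIs of mpeg1.1, marco, cd74a and lcp1 together (log axis of UMIs + 1, with a small sideways scatter), the y axis is the share of the well's UMIs from cardiomyocyte genes in percent, and colours give how many of the 4 genes the well carried. The wells with 3 or 4 genes (13, 12, 1, 1 and 1) lie under 10% on the y axis, while most wells with 1 or 2 genes lie among the wells with none.

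The 28 wells with several macrophage genes had a low share of cardiomyocyte UMIs. At 1 dpci their cardiomyocyte share ran from 0.874% to 3.06%, with a median of 1.77%, against a median of 16.9% in the other cells of the plate. At 3 dpci it ran from 0.518% to 7.62%, with a median of 1.60%, against 20.05% in the others. The lone wells of 7 dpci had 1.52%, 9.46% and 1.97% on plates 1, 2 and 3, against 25.6%, 25.8% and 24.8% in the others. None of the 28 wells was cardiomyocyte-rich, against 238 of the 270 other cells at 1 dpci and 243 of 256 at 3 dpci. On the 7 dpci plates 166 of 168, 227 of 229 and 222 of 224 others were. The lowest share among the other cells was 0.913% at 1 dpci and 0.849% at 3 dpci, so a low share was not particular to these wells. Over the 5 plates the median share was lower by 19.4 ± 3.96 percentage points (SD), and it was lower on 5 of 5 plates. The exact two-sided sign-flip permutation test over plates gave p = 0.063, the smallest that 5 plates allow, and 0.0804 after Benjamini-Hochberg adjustment over the 9 measures compared in this way.

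The cardiomyocyte share of these wells was low but not 0. All 28 wells had at least 1 UMI of myl7, a cardiac myosin light chain that marks zebrafish cardiomyocytes. At 1 dpci these wells had 114 to 585 UMIs of cardiomyocyte genes, with a median of 332 against 369.5 in the other cells. The low share at 1 dpci thus went with a similar number of cardiomyocyte UMIs in deeper wells. At 3 dpci they had 24 to 666, with a median of 73.5 against 367. The lone wells of 7 dpci had 79, 648 and 81 on plates 1, 2 and 3, against medians of 273, 549 and 512. The well on plate 2 of 7 dpci stood out among the later wells, with 648 cardiomyocyte UMIs beside 66 UMIs of cd74a and 11 of mpeg1.1. The highest share at 3 dpci, 7.62%, belonged to a well with 52 UMIs of cd74a, 7 of marco and 5 of lcp1. In each of these wells, transcripts of both kinds were counted under 1 well barcode, and no doublet caller was run beside the sort's own doublet gate.

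The transcripts of the sorting reporter's gene, nppa, which encodes atrial natriuretic peptide, were scarce in the wells with several macrophage genes at 1 and 3 dpci. At 1 dpci 9 of 13 such wells had nppa, with at most 3 UMIs each, and their summed level, in UMIs per 1000000 UMIs of the same wells (CPM), was 58.4 against 1382 in the other cells. At 3 dpci 3 of 12 wells had it, with at most 2 UMIs each, at 67.3 against 943 CPM. Per 100 UMIs of cardiomyocyte genes the gap was smaller. It was 0.354 against 0.940 at 1 dpci and 0.275 against 0.530 at 3 dpci. At 7 dpci the wells on plates 1 and 3 had no nppa, like most other cells of those plates. The well on plate 2 went the other way, with 3 UMIs, or 438 CPM, against 273 CPM in the other cells. Among the other cells, nppa was found in 72.2% at 1 dpci, 62.1% at 3 dpci and 23.2% to 35.7% at 7 dpci. These wells were sorted on the reporter's light, and no fluorescence value was used here.

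The wells with several macrophage genes were deep. Their median was 19787 UMIs at 1 dpci against 2493 in the other cells, and 6000 against 2063 at 3 dpci. At 7 dpci the lone wells held 5211, 6849 and 4121 UMIs against medians of 1023, 2252 and 2194. The mean log2 ratio was 1.88 ± 0.80 (SD, n = 5 plates), higher on 5 of 5 plates (exact sign-flip p = 0.063, adjusted 0.0804). The rule itself favours deep wells, so this ratio is partly set by it. Spike-in UMIs, which are added in equal amounts to each well, did not follow: the log2 ratio was 0.01 ± 0.36 and 3 of 5 plates were higher (exact p = 0.938, adjusted 0.938). At 1 dpci 12 of the 13 wells exceeded 3 times the plate's median UMIs, and they and the other well together held 20.8% of all UMIs of the plate's cells. At 3 dpci 4 of 12 did, and the 12 wells held 9.48%. Mitochondrial transcripts took a median of 13.5% of the UMIs of these wells against 6.40% in the others at 1 dpci, and 25.4% against 2.69% at 3 dpci. Over the 5 plates that difference was 15.2 ± 8.63 percentage points (SD), higher on 5 of 5 (exact p = 0.063, adjusted 0.0804).

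A choice of wells that did not use the 4 genes gave nearly the same wells. A list of 30 other macrophage genes was summed in every cell, and cells in which it took at least 1% of the UMIs were taken. That threshold was chosen after the values had been seen. It took 13 wells at 1 dpci, 10 at 3 dpci and 1 on each 7 dpci plate. Of these, 12, 10, 1, 1 and 1 were wells with several macrophage genes, and 1 well at 1 dpci and 2 at 3 dpci with several of the genes fell outside. The highest cell left out had 0.914% at 1 dpci and 0.669% at 3 dpci, against 0.0240% to 0.282% at 7 dpci. The cardiomyocyte share of the wells chosen in this way was lower by 19.3 percentage points over the 5 plates (exact sign-flip p = 0.063), and their log2 UMI ratio was 1.88.

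The wells that the 2 choices did not share were as follows. The well at 1 dpci with several of the genes but little of the macrophage list had 11 UMIs of cd74a, 5 of lcp1, 1 of marco and none of mpeg1.1 among 14717 UMIs. It held 34 UMIs of nppb, which encodes brain natriuretic peptide, the most of any of the 28 wells, and 23 UMIs of the macrophage list. The well at 1 dpci chosen by the list alone had 7 UMIs of lcp1 and none of the other members. It held 877 UMIs of the neutrophil list among 18305, beside 221 of the macrophage list and 1457 of cardiomyocyte genes. L-plastin is also made by neutrophils, but the cell type of this well was not tested. Outside the wells with several genes at 1 dpci, the neutrophil list had 1229 UMIs. Of these, 876 were of the collagenase gene mmp13a, 4 of CSF3R and 2 of lyz. A well of 3 dpci with 3481 UMIs qualified through 1 UMI each of marco, cd74a and lcp1, and had 17 UMIs of the macrophage list. The other such well of 3 dpci carried all 4 genes, with 2 UMIs of mpeg1.1, 2 of marco, 9 of cd74a and 3 of lcp1. It had 23 UMIs of the macrophage list among 3440 and a cardiomyocyte share of 2.01%, within the range of the wells chosen both ways.

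**Figure D2:**
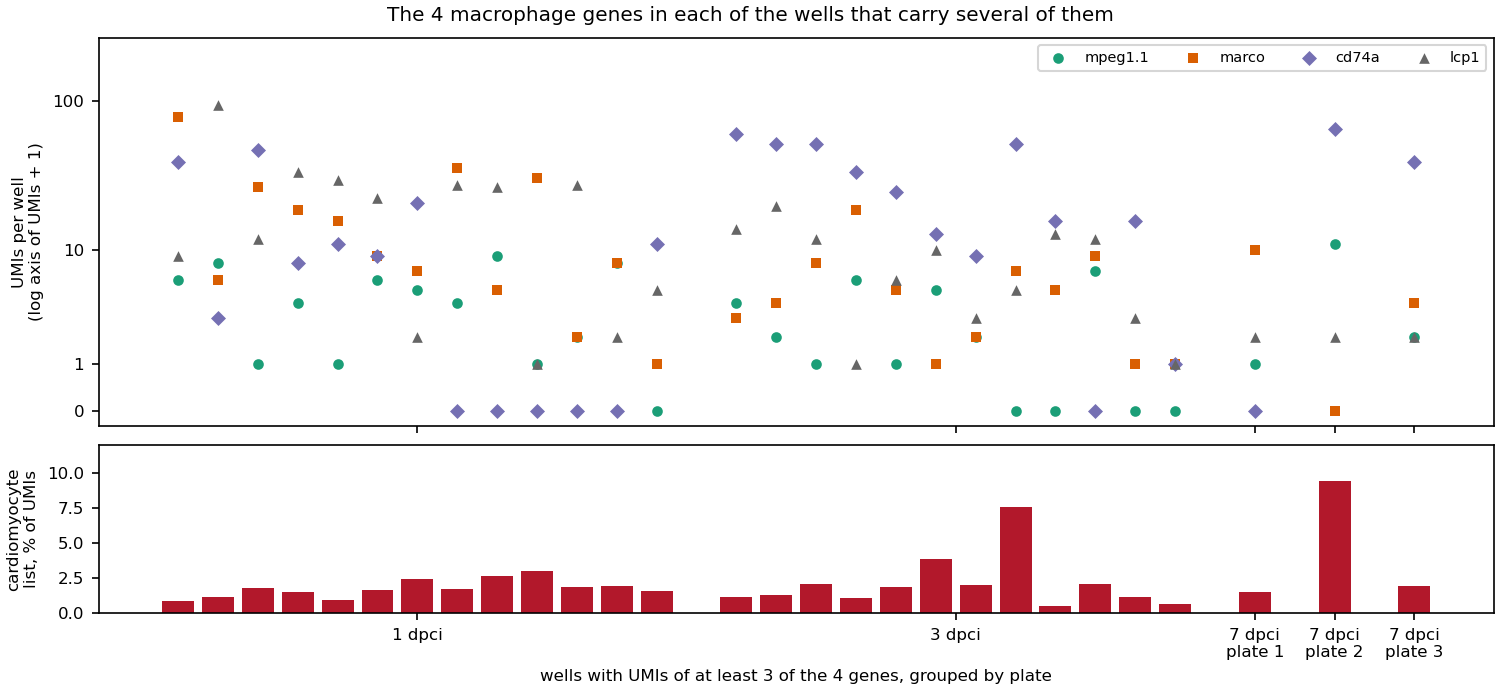
Each column is one of the 28 wells with UMIs of at least 3 of the 4 genes, grouped by plate. Points in the upper panel are UMIs of each gene in that well (log axis of UMIs + 1), and bars in the lower panel are the share of the well's UMIs from cardiomyocyte genes in percent. cd74a is at 0 in 5 of the 13 wells at 1 dpci and is the highest of the 4 genes in 10 of the 12 wells at 3 dpci, and the bars of 2 wells reach 7.62% and 9.46%.

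The rule for these wells uses the 4 genes, so the part of each member's UMIs that lay in them is partly set by it. The wells chosen by the macrophage list held 55 UMIs of mpeg1.1, 245 of marco, 141 of cd74a and 298 of lcp1 at 1 dpci. At 3 dpci they held 26, 62, 323 and 96. mpeg1.1 was counted in few wells and nearly all of its UMIs lay in the wells with several macrophage genes. Its UMIs in cells numbered 58 on the plate of 1 dpci and 30 on that of 3 dpci, and plates 1, 2 and 3 of 7 dpci had 1, 11 and 3. The wells with several of the genes held 94.8% of them at 1 dpci and 93.3% at 3 dpci. In those wells it ranged from 0 to 9 UMIs with a median of 4 at 1 dpci (12 of 13 wells), and from 0 to 7 with a median of 1.5 at 3 dpci (8 of 12 wells). Outside them no cell had more than 1 UMI. All 11 UMIs of plate 2 of 7 dpci came from its lone well. A second row for this gene family, named MPEG1 (ENSDARG00000043093), had 3 UMIs at 1 dpci and 3 on plate 3 of 7 dpci, all in wells with several macrophage genes. Whether reads shared by these rows were split between them is not known.

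marco had 264 UMIs in the cells of 1 dpci and 67 in those of 3 dpci, while the 7 dpci plates had 10, 0 and 4. It was present in all 13 wells with several of the genes at 1 dpci, with 1 to 79 UMIs and a median of 9, and in all 12 at 3 dpci, with 1 to 19 and a median of 4.5. These wells held 93.2% of its UMIs at 1 dpci and 97.02% at 3 dpci. No cell outside them had more than 1 UMI of it on any plate. The table of plate 2 of 7 dpci has no marco row and was read as 0, and a count of 0 among 230 cells allows a share of up to 1.304% by the 3-count limit and 1.59% by the exact 95% interval. The well of that plate with 66 UMIs of cd74a thus had no marco, while the wells of plates 1 and 3 had 10 and 4 UMIs.

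lcp1 gave the most wells at 1 dpci. It had 340 UMIs in 45 cells at 1 dpci and 105 UMIs in 17 cells at 3 dpci. The 7 dpci plates had 3, 3 and 2 UMIs in 2, 2 and 1 cells. All 28 wells with several of the genes carried it: 1 to 94 UMIs with a median of 23 at 1 dpci, 1 to 20 with a median of 8 at 3 dpci, and 2 in each lone well at 7 dpci. These wells held 87.04% of its UMIs at 1 dpci and 95.2% at 3 dpci. Of the 4 genes it was the one most often found outside them at 1 dpci, in 32 of 270 other cells, with up to 7 UMIs.

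cd74a was the member whose level within these wells differed most between plates. At 1 dpci 167 of its UMIs were counted in cells and at 3 dpci 383, while the 7 dpci plates had 2, 66 and 47. At 1 dpci only 8 of the 13 wells with several of the genes had it, with up to 48 UMIs and a median of 8 over all 13. At 3 dpci 11 of 12 had it, with up to 61 UMIs and a median of 20.5. At 7 dpci the lone wells had 0, 66 and 40 UMIs on plates 1, 2 and 3. cd74a was the highest of the 4 genes in 3 of 13 wells at 1 dpci, in 10 of 12 at 3 dpci, and in the wells of plates 2 and 3 at 7 dpci.

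Per 10000 UMIs of the well, cd74a ranged from 0 to 30.7 with a median of 3.24 at 1 dpci, and from 0 to 100.02 with a median of 43.3 at 3 dpci. The ranges overlapped, and 7 of the 12 wells at 3 dpci lay above the highest well of 1 dpci. Summed over the wells, the level was 589.6 CPM at 1 dpci and 4477 at 3 dpci, a ratio of 7.58 (exact 95% interval 6.24 to 9.24). Without the well richest in cd74a on each plate, the levels were 435 and 3979. In the wells chosen by the macrophage list the ratio was 8.86 (7.25 to 10.9). Such intervals cover counting error only, since each time point is 1 plate, and no test between plates was run within these wells. For the other members the same ratio in the wells with several genes was 1.76 for mpeg1.1 (1.08 to 2.82), 0.914 for marco (0.684 to 1.21) and 1.17 for lcp1 (0.922 to 1.47).

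As shares of the 748 UMIs of the 4 genes in these wells at 1 dpci, lcp1 took 39.5%, marco 32.9%, cd74a 20.2% and mpeg1.1 7.35%. Of the 526 at 3 dpci, cd74a took 63.3%, lcp1 19.04%, marco 12.4% and mpeg1.1 5.33%. The lone wells of plates 2 and 3 of 7 dpci had 83.4% and 83.4% of such UMIs in cd74a, and that of plate 1 had 76.9% in marco and none in cd74a. The share of cd74a thus ranged from 0% to 83.4% among the lone wells of 7 dpci, and wells of 1 plate are not replicates of its time point.

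**Figure D3:**
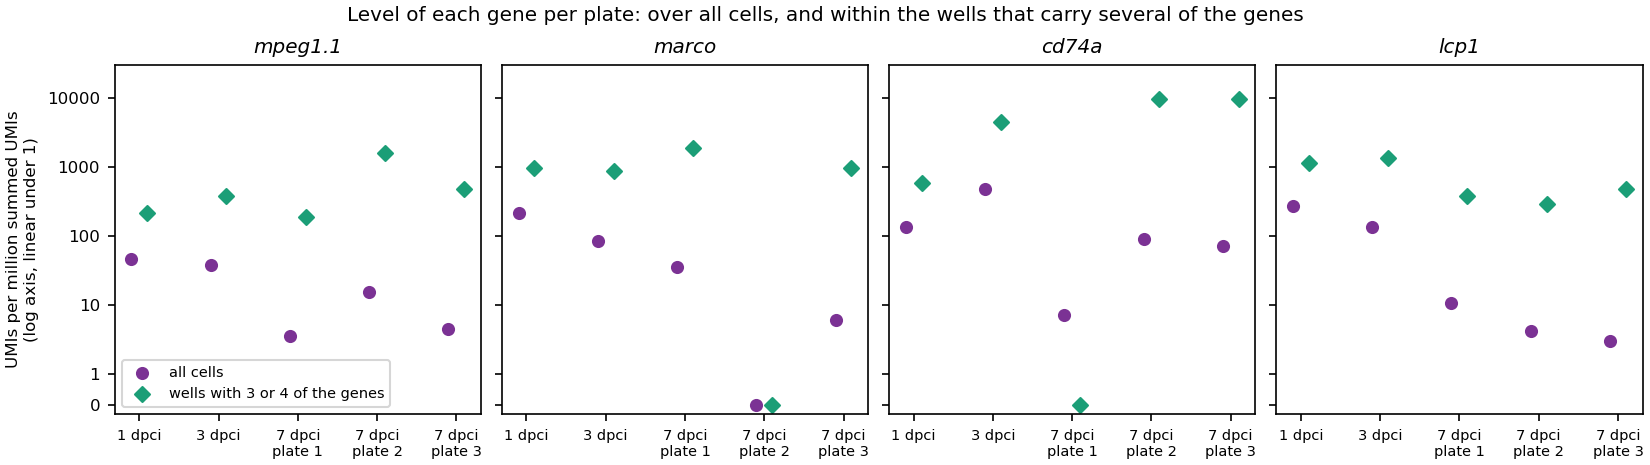
Each panel is a gene, and each x position is a plate. The y axis is the gene's level in CPM (log axis, linear under 1), summed over all cells of the plate (circles) or over its wells with 3 or 4 of the genes (diamonds). Over all cells lcp1 is at 274 and 134 at 1 and 3 dpci and at 3.04 to 10.6 on the 7 dpci plates, while the cd74a diamonds lie at 589.6 at 1 dpci and 4477 at 3 dpci. marco on plate 2 of 7 dpci had no row and is drawn at 0.

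Over all cells of a plate, lcp1 was the only member past the test's threshold, with lower levels at 7 dpci than at either earlier time. Its level was 274 CPM at 1 dpci and 134 at 3 dpci, while the 7 dpci plates had 10.6, 4.19 and 3.04. CPM is scaled to library totals, and with such totals the median log2 change of all genes was -0.80 from 1 dpci and -0.66 from 3 dpci. How many of all genes lay under both earlier plates was not counted. In CPM lcp1 did so on every 7 dpci plate, as did the other members. In edgeR's own scaling (TMM) cd74a did not, since plate 2 of 7 dpci was at 117 against 100.5 at 1 dpci. edgeR's quasi-likelihood test on the summed UMIs, with Benjamini-Hochberg adjustment over 5624 genes, gave a log2 change of -5.04 ± 0.57 (SE) from 1 to 7 dpci (adjusted p = 0.00354). From 3 to 7 dpci it gave -4.11 ± 0.59 (adjusted p = 0.0188). So 1 of the 4 members was called in each comparison. The fit required a mean of 10 CPM over the 5 plates. lcp1 reached it through the early plates, as its 7 dpci mean was 5.95 CPM. The same held for mpeg1.1, with a 7 dpci mean of 7.83 CPM. Of all genes tested, 7.54% were called between 1 and 7 dpci (4.69% lower and 2.84% higher at 7 dpci) and 1.9% between 3 and 7 dpci (1.23% lower and 0.676% higher). Only the 7 dpci plates give a spread, and each lone earlier plate was assumed to vary as they do. Without plate 2 of 7 dpci, edgeR called no gene in either comparison, though 473 and 287 genes were lower at an unadjusted p under 0.05. lcp1 was then at -4.84 and -3.96 (adjusted p = 0.379 and 0.613).

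The call for 1 to 7 dpci was lost under a different choice of cells. Without cells above 3 times their plate's median UMIs, which left out 12 of the 13 wells with several of the genes at 1 dpci, the log2 change of lcp1 from 1 to 7 dpci was -3.29 (adjusted p = 0.0525). From 3 to 7 dpci the change was larger under that choice, at -5.01 (adjusted p = 0.00503). With each cell given the same weight and limma in place of edgeR, lcp1 was at -4.83 and -4.24, close to the values above, and not called (adjusted p = 0.115 and 0.223). That fit called 3 of 4803 genes higher and 5 lower from 1 dpci, and none from 3 dpci, where 548 were lower at an unadjusted p under 0.05. In a sum over cells, fewer cells of a type and less RNA per cell cannot be told apart. Within the wells with several of the genes, lcp1 was at 1150.3 and 1347 CPM at 1 and 3 dpci against 384, 292 and 485 at 7 dpci. These wells were chosen in part by lcp1, and the part of cell number and of RNA per cell was not tested.

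The other members did not pass the threshold. marco was at 213 CPM at 1 dpci, 85.6 at 3 dpci, and 35.5, 0 and 6.09 at 7 dpci. All 7 dpci plates lay under both earlier plates, with log2 changes of -3.71 ± 1.04 from 1 dpci (edgeR, adjusted p = 0.0676) and -2.49 ± 1.09 from 3 dpci (adjusted p = 0.326). mpeg1.1 was at 46.9, 38.3, and 3.54, 15.4 and 4.56 CPM in the same order. Its log2 changes were -1.74 ± 0.93 (adjusted p = 0.333) and -1.55 ± 0.95 (adjusted p = 0.539), and -2.70 and -2.57 without plate 2 of 7 dpci, neither of them called. cd74a was at 135, 489, and 7.08, 91.6 and 71.8 CPM. Its log2 changes were -0.44 ± 0.84 from 1 dpci (adjusted p = 0.837) and -2.40 ± 0.78 from 3 dpci (adjusted p = 0.168). The cd74a change from 1 dpci turned to 1.72 without the cells of very high depth and to 0.13 without plate 1 of 7 dpci, neither of them called. marco was called from 1 dpci without plate 1 (log2 change -5.30, adjusted p = 9.54e-07) and without plate 3 (-3.25, adjusted p = 0.00398). cd74a was called from 3 dpci without plate 1 (-1.88, adjusted p = 0.00025) and without plate 3 (-2.49, adjusted p = 0.0159). Of all genes, 13.3% were called lower from 1 dpci without plate 1 and 5.3% without plate 3. From 3 dpci the shares were 8.12% and 2.44%. All these comparisons share the 7 dpci plates.

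Between 1 and 3 dpci no member passed the threshold. Over all cells the ratio of 3 to 1 dpci was 3.62 for cd74a (exact 95% interval 3.01 to 4.37), 0.817 for mpeg1.1 (0.508 to 1.29), 0.488 for lcp1 (0.388 to 0.609) and 0.401 for marco (0.302 to 0.526). In the same edgeR fit, where the spread is that of the 7 dpci plates, the log2 changes from 1 to 3 dpci were 1.95 ± 1.05 for cd74a, -0.19 ± 1.13 for mpeg1.1, -0.94 ± 0.62 for lcp1 and -1.22 ± 1.23 for marco (SE, adjusted p = 1 for each). This test was added after the data were seen. It called 0 of 5624 genes (0%), with 64 higher and 73 lower at an unadjusted p under 0.05, while DESeq2 called 2 higher and 2 lower. It recovered 0 of 190 simulated 4-fold changes, so the missed threshold does not show that the plates were alike. Without plate 1 of 7 dpci, cd74a was called (log2 change 2.01, adjusted p = 0.00959). That fit called 45 of 5810 genes higher and 33 lower. The lower sums of marco and lcp1 at 3 dpci stood beside wells of lower depth. The 12 wells held 74319 UMIs in all, against 257041 in the 13 wells of 1 dpci. Within those wells the ratios of both genes were near 1, as given above, but the wells were chosen in part by these genes. In the wells chosen by the macrophage list the ratios were 0.979 for marco and 1.25 for lcp1. The part of depth in the lower sums was not tested. Without the cells of very high depth the log2 ratio over all cells was 1.69 for lcp1, which turned its direction, 4.47 for cd74a, 2.46 for mpeg1.1 and -0.13 for marco.

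Single UMIs of the members were also counted in cardiomyocyte-rich wells. Of the 81 cells with 1 of the genes, 71 had 1 UMI in all and 70 were cardiomyocyte-rich. All 9 cells with 2 of the genes were cardiomyocyte-rich, with a cardiomyocyte share of 10.2% to 21.9% and at most 4 UMIs of the 4 genes. At 1 dpci lcp1 was found in 45 of 283 cells (15.9%, exact 95% binomial interval 11.8% to 20.7%), and in 26 of the 238 cardiomyocyte-rich ones (10.9%, 7.26% to 15.6%). At 3 dpci it was found in 6.34% of cells (3.74% to 9.96%), and in 2.06% of the cardiomyocyte-rich ones (0.671% to 4.74%). cd74a was found in 7.77% of cells at 1 dpci and 8.96% at 3 dpci, against 5.88% and 4.94% of the cardiomyocyte-rich ones. marco was found in 10.95% and 5.22% of cells, against 6.72% and 0.823%. mpeg1.1 was found in 5.30% and 3.73%, against 1.26% and 0.823%. The median depth was 2700 and 2178 UMIs in all cells of 1 and 3 dpci, and 2413 and 1948 in the cardiomyocyte-rich ones. At 1 dpci 26 of the 45 cells with lcp1, 16 of the 31 with marco, 14 of the 22 with cd74a and 3 of the 15 with mpeg1.1 were cardiomyocyte-rich. Whether the shares in cardiomyocyte-rich cells came from expression in cardiomyocytes or from a background of other cells' RNA was not tested.

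**Figure D4:**
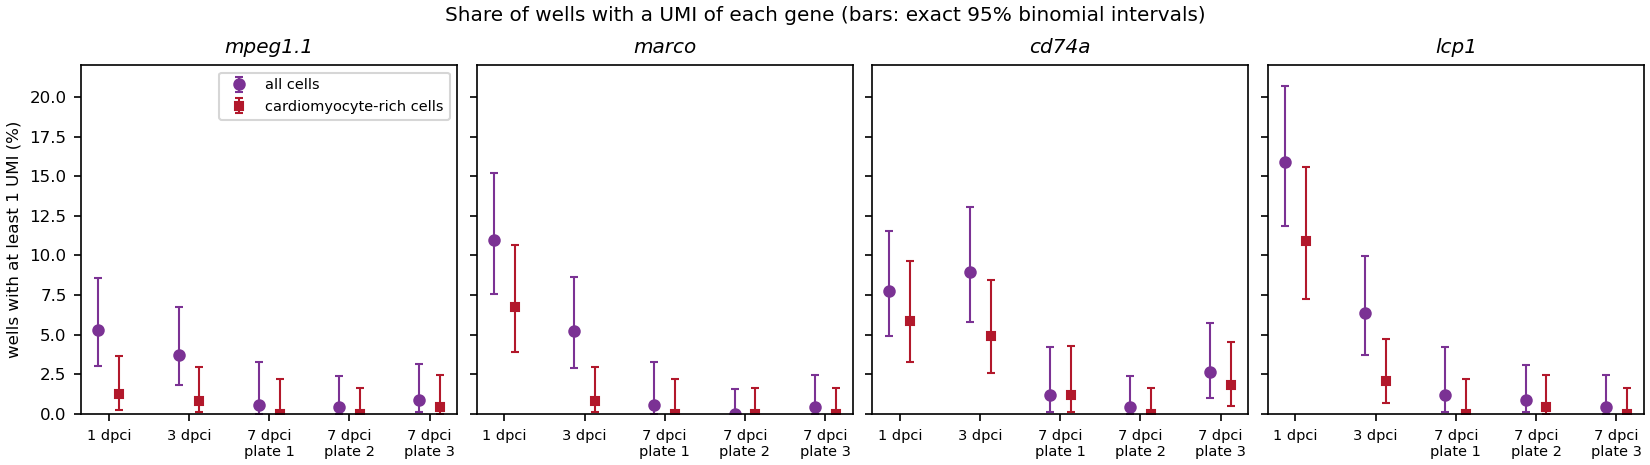
Each panel is a gene, and each x position is a plate. The y axis is the share of wells with at least 1 UMI in percent, among all cells (circles) and among cells in which cardiomyocyte genes took at least 10% of the UMIs (squares), with exact 95% binomial intervals as bars. For lcp1 at 1 dpci the values are 15.9% and 10.9%, and for marco at 3 dpci they are 5.22% and 0.823%.

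The UMIs in cardiomyocyte-rich wells were divided among the members as follows. At 1 dpci the cardiomyocyte-rich wells held 63 UMIs of the 4 genes, of which lcp1 took 46.03%, marco 25.4%, cd74a 23.8% and mpeg1.1 4.76%. At 3 dpci they held 23, of which cd74a took 60.9%, lcp1 21.7%, marco 8.70% and mpeg1.1 8.70%. The leading gene was thus lcp1 at 1 dpci and cd74a at 3 dpci in both kinds of well. Cardiomyocyte-rich wells had 0.793 UMIs of the 4 genes per 10000 UMIs at 1 dpci and 0.372 at 3 dpci, against 29.1 and 70.8 in the wells with several. On the 7 dpci plates they had 0.0739, 0.0142 and 0.0959, from 2, 1 and 6 UMIs. Whether these UMIs came from RNA free in the cell suspension was not tested.

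Of the 81 cells with 1 of the genes, 11 were not cardiomyocyte-rich, and 4 of these are described here, chosen after their values were seen. A cell of 3 dpci had 36 UMIs of cd74a and none of the other 3 genes among 7195 UMIs, with a cardiomyocyte share of 1.41% and 6 UMIs of the macrophage list. It held most of the 50 cd74a UMIs counted outside the wells with several genes on that plate. At 1 dpci 3 cells had 1 or 2 UMIs of lcp1 beside 166 to 227 UMIs of nppb, with cardiomyocyte shares of 1.14% to 1.299% and 9 to 46 UMIs of the macrophage list among 11049 to 16956.

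The wider macrophage list moved with the members. Of its 34 symbols 30 matched a row, and the 6 with the most UMIs were marcksl1b, HMOX1, ctss2.1, lygl1, cd68 and one of the MFAP4 rows. cd68 encodes a lysosomal glycoprotein of phagocytes, and HMOX1 an enzyme that breaks down haem. In the 13 wells of 1 dpci the list had 4709 UMIs, or 18320.5 CPM, against 881 UMIs and 897 CPM in the 270 other cells. In the 12 wells of 3 dpci it had 1200 UMIs and 16144 CPM, against 130 UMIs and 183 CPM. At 7 dpci the lone wells had 122, 70 and 127 UMIs of the list, against 1, 8 and 51 in all other cells of the plate. The median share of the list was higher in these wells by 2.01 ± 0.77 percentage points (SD), on 5 of 5 plates (exact sign-flip p = 0.063, adjusted 0.0804). At both 1 and 3 dpci, 27 of the 30 rows were detected in the wells with several of the genes, and 27 were higher there than in the other cells. These wells were deeper, with a median of 3760 genes detected at 1 dpci against 805. The share of all genes that were higher there was not counted, for this list or those below.

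ctss2.1, a cathepsin of the lysosome, was found in all 28 wells. It had 489 UMIs in them at 1 dpci, 125 at 3 dpci, and 4, 2 and 24 at 7 dpci, against 53, 1, 0, 0 and 5 in all other cells. cd68 was also found in all 28, with 295, 71, 5, 5 and 7 UMIs against 66, 8, 0, 3 and 8 elsewhere. MFAP4 (ENSDARG00000090783), a row of the gene family whose zebrafish member mfap4 is used as a macrophage reporter, was found in 9 of 13, 10 of 12, 1, 0 and 1 wells, and had 321, 86, 21, 0 and 11 UMIs. HMOX1 was found in 12 of 13 and 11 of 12 wells at the early times, and not in the well of plate 2 of 7 dpci. That well, the one with the highest cardiomyocyte share, thus lacked UMIs of marco, HMOX1 and this MFAP4 row, and carried mpeg1.1, cd74a, lcp1, cd68 and ctss2.1.

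General leukocyte genes followed the same wells. The 16 matched rows had 2643 UMIs in the wells with several of the genes at 1 dpci, and 635 at 3 dpci, against 646 and 159 in the other cells. cfp, which encodes the complement factor properdin, was in all 13 wells of 1 dpci and all 12 of 3 dpci, with 403 and 153 UMIs. NCF1, a subunit of the phagocyte NADPH oxidase, was in 13 and 10 of them with 314 and 104 UMIs. CORO1A, an actin regulator of leukocytes, was in 12 and 9 of them with 228 and 44 UMIs. The median share of the list was higher by 0.71 ± 0.21 percentage points (SD) on 5 of 5 plates (exact sign-flip p = 0.063, adjusted 0.0804).

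Antigen presentation genes, the functional company of cd74a, were also counted in the other cells. They had 2871 UMIs in the wells of 1 dpci against 1276 elsewhere, and 814 against 832 at 3 dpci. The list's 16 rows took a median share 1.36 ± 0.86 percentage points higher in them (SD), on 5 of 5 plates (exact sign-flip p = 0.063, adjusted 0.0804). CTSD, an acid protease of the lysosome, had 725 UMIs in the wells of 1 dpci and 103 in those of 3 dpci, against 76 and 17 elsewhere. b2m, the light chain of MHC class I, was in all 28 wells. It was also counted in the other cells of every plate, with 286 against 413 UMIs at 1 dpci and 103 against 264 at 3 dpci. cd74b, the paralog of cd74a, had 92 and 107 UMIs in the wells of 1 and 3 dpci, against 10 and 14 elsewhere. At 7 dpci it had 3, 22 and 11 in the lone wells of plates 1, 2 and 3, and plate 1, whose well had no cd74a, thus had the fewest.

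Markers of other cell types were given the same comparison. The 8 matched neutrophil rows had 372 UMIs in the wells with several of the genes at 1 dpci against 1229 in the other cells, 70 against 80 at 3 dpci, and 0, 1 and 7 at 7 dpci. At 1 dpci, 877 of the 1229 lay in the well described above with 7 UMIs of lcp1, and 247 of the 372 were srgn, a proteoglycan of secretory granules that is also in the leukocyte list. lyz, a lysozyme that marks zebrafish neutrophils, was at 0 in all 28 wells but had only 2 UMIs over all plates. mmp13a, a collagenase, had 70 UMIs in 12 wells of 1 dpci. At that time 4 of the 8 rows were higher in these wells and 4 lower. illr4 (105 against 29.6 CPM) and CSF3R (42.8 against 4.08) were among the higher ones. mmp13a (273 against 893) and MMP9 (62.3 against 94.5) were among the lower ones. How much of the mmp13a level in the other cells came from the well with 877 list UMIs was not counted. The median share of the list differed by 0.07 ± 0.07 percentage points, higher on 4 of 5 plates (exact sign-flip p = 0.125, adjusted 0.141). Endothelial genes had 144 UMIs in the wells of 1 dpci and 41 in those of 3 dpci, at 561 and 552 CPM against 822 and 541 in the other cells. Epicardial or fibroblast genes were at 467 and 121 CPM against 1375 and 627, and the matrix gene DCN was at 0 in all 28 wells. The 3 matched lymphocyte rows had 27 and 3 UMIs, or 105 and 40.4 CPM against 7.13 and 5.64. The 5 rows for red cells or thrombocytes had 12 and 19 UMIs, or 46.7 and 256 CPM against 9.17 and 2.82. Single wells gave nearly all of them. At 1 dpci 1 well held 11 UMIs of itga2b. At 3 dpci THBS1 had 14 UMIs in 1 well and itga2b 5 in 1 well. Smooth muscle or mural genes were at 1051 and 552 CPM against 276 and 237. Of the 7 rows, 5 were higher there at 1 dpci and 3 at 3 dpci. A TAGLN row (ENSDARG00000033466) gave 241 of the 270 UMIs and 37 of the 41. The other TAGLN row was lower (15.6 against 60.1 and 13.5 against 116 CPM), and acta2 was at 0 in all 28 wells. At 7 dpci the list was at 384, 0 and 485 CPM against 988, 209 and 333. The part that other cell types have in the members' levels was not tested.

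Across all cells the genes whose pattern was most like the members' were ranked by the lower of their Pearson r at 1 and 3 dpci, over 283 and 268 cells. The measure was log2(UMIs per 10000 + 1), set against the mean of the same over the 4 members, for 5047 genes with at least 50 UMIs. This is a description, since the cells share libraries and depth and most cells had no UMI of any member. The first was abca1b, a transporter that exports cholesterol (r = 0.80 and 0.80), followed by CMKLR1, a chemerin receptor (0.78 and 0.75), and wdfy4 (0.75 and 0.79). c1qa, a chain of complement C1q (0.74 and 0.86), and mcoln3a, a lysosomal channel (0.74 and 0.85), came next. The unnamed rows ENSDARG00000041180 (0.73 and 0.82) and ENSDARG00000058941 (0.71 and 0.88), REL, an NF-kappaB subunit (0.69 and 0.81), a further unnamed row (ENSDARG00000008423, 0.69 and 0.83) and rac2, a small GTPase of leukocytes (0.69 and 0.70), completed the 10. mcoln3a had 69, 36, 3, 1 and 1 UMIs in the wells with several of the genes, in 25 of the 28, and 3 UMIs in all other cells. abca1b had 67 and 55 UMIs at 1 and 3 dpci and none in the lone wells of 7 dpci.

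Each member's likeness to the mean of the other 3 differed between plates. At 1 dpci r was 0.62 for mpeg1.1, 0.57 for marco, 0.43 for cd74a and 0.41 for lcp1. At 3 dpci it was 0.61, 0.82, 0.76 and 0.86 in the same order. In pairs over all plates, mpeg1.1 shared 23 of its 29 cells with lcp1 (79.3%, and 34.3% of the 67 lcp1 cells). cd74a shared 21 of its 55 cells with marco (38.2%, and 44.7% of the 47 marco cells). With at least 2 UMIs of each gene required, 16 of 17 mpeg1.1 cells also had lcp1, and 16 of 25 cd74a cells had marco.

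In the fit over summed UMIs, most tested rows of the macrophage list were called lower at 7 than at 1 dpci. Of its 30 matched rows, 17 reached the mean of 10 CPM over the 5 plates that the fit required. A row of any list can reach that through the early plates alone, so shares among tested rows are a description. c1qa, for example, was called lower and had no UMI in the cells of 7 dpci. edgeR called 12 of the 17 macrophage rows lower and none higher, against the 4.69% and 2.84% of all genes given above. The median log2 change of the 17 was -3.70 against -0.13 over all genes. Among the rows called lower were cd68 (-3.40 ± 0.49, adjusted p = 0.00702), marcksl1b (-3.56 ± 0.52, adjusted p = 0.00754) and ctss2.1 (-3.70 ± 0.82, adjusted p = 0.0331). HMOX1 was at -3.45 ± 1.04 (adjusted p = 0.0833), with no call. Of the 14 leukocyte rows tested, 10 were called lower and none higher, among them cfp (-6.86 ± 0.76, adjusted p = 0.00354). Antigen presentation gave 3 of 12 lower, CTSD, ctss2.1 and cd83, and b2m was at 1.00 ± 0.35 (adjusted p = 0.126). Neutrophil genes gave 3 of 4 lower, endothelial genes 4 of 5 and epicardial or fibroblast genes 1 of 7. Of 3 smooth muscle or mural genes tested, 1 was called lower and 1 higher. Of 3 border zone genes, 2 were called lower, nppb (log2 change -3.04) and nppa (-1.18), and none higher. Cardiomyocyte genes gave 9 of 20 higher and none lower. Neutrophil, endothelial and border zone lists thus had most of their tested rows called in the direction of lcp1, and their part in the result was not tested. The macrophage count was 2 of 13 without the cells of very high depth, where 2.95% of all genes were called lower. It was 0 of 19 without plate 2 of 7 dpci, where 13 were lower at an unadjusted p under 0.05 and no gene of any kind was called.

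From 3 to 7 dpci edgeR called none of the 17 macrophage rows, with 13 lower at an unadjusted p under 0.05 and a median log2 change of -2.37 against -0.09 over all genes. DESeq2 called 1. The leukocyte list gave 2 of 14 lower, NCF1 (-4.53 ± 0.87, adjusted p = 0.043) and cfp (-6.18 ± 0.78, adjusted p = 0.0133). The antigen presentation list gave none of 12, with 6 lower and 1 higher at an unadjusted p under 0.05 by edgeR. Here 1.9% of all genes were called. Without plate 1 of 7 dpci, the count for the macrophage list was 15 of 18, where 8.12% of all genes were called lower. Without plate 3 it was 5 of 19, where 2.44% were.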

How the data were processed

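The authors sorted viable single cells, gating out doublets by size and granularity, and had plates made by SORT-seq. The deposited values are estimated counts: UMIs per gene and well, corrected by the authors' pipeline for UMI collisions with 4096 barcodes, not scaled to depth. Per the labels and the methods, reads were mapped to Zv9, and the submitters' processing notes name BWA 0.6.2. The annotation is not given in the sources used here. Symbols were looked up by Ensembl ID and are partly human.

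ERCC rows and 15 mitochondrial genes were left out, and wells with at least 500 UMIs were kept. The study's methods state that minimum in reads, after oversequenced reads were also removed, and the cells kept here do not match the study's numbers per time point. Per plate, the cells' UMIs were added up, rounded to integers and fitted by time point with edgeR 4.0.16 (quasi-likelihood test, TMM, mean CPM of 10 or more, Benjamini-Hochberg, threshold 0.05) in R 4.3.3. Plates, not wells, were the replicates. DESeq2 1.42.0, limma 3.58.1 (log2 of CPM + 1), library totals, no filter, a 1000 UMI minimum, leaving out cells above 3 times the plate median, leaving out plates, and thinning to 1000 or 500 UMIs (Python 3.11.15, numpy) were alternatives. On simulated counts, 37 of 190 genes changed 4-fold were called for 7 against 1 dpci, 17 of 192 for 7 against 3 dpci and 0 of 190 for 3 against 1 dpci, so a missed threshold says little. Shares have exact Clopper-Pearson 95% intervals, and intervals and floors cover counting error only; a count of 0 allows 3.

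The 4 genes, the 10 most alike genes and, of each list, up to 6 genes with the most UMIs were named, beside genes chosen after their values were seen. The members and lists were chosen with earlier results of these data known. Zv9 coordinates and sequences were not used here.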

Additional observations from a re-analysis of the deposited data

Results flagged for a closer look

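UMIs of the 4 genes were also counted in wells with under 500 UMIs, which no comparison used. They numbered 8 in 8 such wells at 1 dpci, 6 in 6 at 3 dpci, 8 in 1 well on plate 1 of 7 dpci and 5 in 4 on plate 3, each above the 3 that a count of 0 allows, and 1 UMI on plate 2. At 1 and 3 dpci each of these wells had 1 UMI. On plate 1 of 7 dpci all 8 came from a well with 455 UMIs, which held 7 of cd74a, 1 of marco, 10 of the macrophage list and a cardiomyocyte share of 1.76%. That plate had 1 well with several of the genes among its cells.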

How the results depend on the processing

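No paired analysis was possible because the groups compared share fewer than 2 replicate numbers, with 1 plate each at 1 and 3 dpci. The lower cardiomyocyte share of the wells with several macrophage genes kept its direction under 9 alternatives and their higher UMI total under 8. Of 70 alternative values for the members at 7 dpci against 1 or 3 dpci, 55 kept direction and side of the threshold, 8 gained a call, 5 lost it and 2 turned.

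Without cells above 3 times the plate median, log2 changes from 1 to 7 dpci were -3.29 for lcp1 (edgeR, adjusted p = 0.0525) and 1.72 for cd74a (adjusted p = 0.560), and the log2 ratios of 3 to 1 dpci were 2.46 for mpeg1.1, -0.13 for marco, 4.47 for cd74a and 1.69 for lcp1. For the ratios of 3 to 1 dpci, this alternative was added after the data were seen. By limma on equally weighted cells lcp1 was at -4.83 and -4.24 from 1 and 3 dpci. Without a filter marco was at -3.86 and -2.63 and cd74a at -2.50 from 3 dpci, all called. Leaving out a 7 dpci plate gave, from 1 dpci, -5.35 to -4.62 for lcp1, -5.30 to -2.88 for marco and -0.86 to 0.13 for cd74a, the last value being that without plate 1. From 3 dpci it gave -4.47 to -3.74, -4.13 to -1.72 and -2.87 to -1.88. For mpeg1.1 it gave -2.70 to -1.32 from 1 dpci and -2.57 to -1.18 from 3 dpci. In the added edgeR test of 3 against 1 dpci, lcp1 turned to 1.72 without the deepest cells and mpeg1.1 to 0.62 by limma, and cd74a was at 2.01 with each plate of 7 dpci left out in turn, called only without plate 1. The cause was not tested.

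The share of wells with several of the genes was 0.408% at 1 dpci without the deepest cells, 0.417% and 0% at 1 dpci and 1.90% and 1.12% at 3 dpci when thinned to 1000 and 500 UMIs. At 7 dpci it was 0.293% with 2 UMIs required, 0.727% with a 1000 UMI minimum, 0.162% without the deepest cells, 0.148% with all 4 genes required, 0% on thinning, and 0.440% to 0.518% without a plate. Macrophage list calls from 1 dpci, 12 above, were 2 without the deepest cells, 0 by limma and 0 to 17 without a plate. The shares of all genes called lower were then 2.95%, 0.104% and 0% to 13.3%. From 3 dpci, none above, the list calls were 1 by DESeq2, 1 with library totals, 12 without a filter, 3 without the deepest cells and 0 to 15 without a plate. In that order, 1.46%, 1.92%, 1.43%, 3% and 0% to 8.12% of all genes were called lower. These list alternatives were added after the data were seen.

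Over all genes, 160 were called higher and 264 lower from 1 to 7 dpci, and 38 and 69 from 3 dpci. The counts were 53 and 466, and 12 and 108, with library totals, which moved the median log2 change to -0.80 and -0.66; 221 and 175, and 119 and 82, by DESeq2; 146 and 544, and 52 and 256, without a filter; 70 and 179, and 12 and 41, with a 1000 UMI minimum; 171 and 142, and 153 and 144, without the deepest cells; 3 and 5, and 0 and 0, by limma. They were 634 and 773, and 400 and 472, without plate 1, and 0 without plate 2. Without plate 3 they were 106 and 312, and 33 and 144. Low counts limit the members at 7 dpci, where a plate had 0 to 66 UMIs of a gene.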
